A study of Mus musculus with 2 samples.

Results

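The alpha-beta T cell receptor variable segments comprise every Trav and Trbv gene in the deposited gene lists with at least 1 UMI (a unique molecular identifier, counting 1 captured RNA molecule) in either library. This rule gave 94 segments, 71 Trav and 23 Trbv, of 163 listed Trav and Trbv symbols and 31053 genes in all. They were read in CD3 cells. These are barcodes with 300 or more genes, a mitochondrial share of UMIs under 10%, and 1 or more UMIs of Cd3d, Cd3e or Cd3g, the CD3 chains that carry the receptor to the surface. The study compared 2 single-cell RNA libraries of live lung cells from adult mice that were positive for CD45 in tissue and negative for a CD45 antibody given into the blood. Both groups were Gli1creERT/Hhipflo/flox mice, spelled as in the labels, which carry a tamoxifen-inducible Cre made by cells that express Gli1 and floxed Hhip alleles. The control library came from mice injected with oil, and the other from mice injected with tamoxifen, which in this design removes Hhip, an inhibitor of Hedgehog signalling, from Gli1-expressing cells. Tamoxifen itself, the deletion and the library cannot be told apart. The sources used here do not give the number, strain or sex of the animals, and each library held cells called female and cells called male from their Xist and Y-linked UMIs.

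An alpha-beta receptor is assembled in the thymus by joining 1 of many variable segments to a joining segment, with a diversity segment between them on the beta chain, and to a constant region, Trac for alpha and Trbc1 or Trbc2 for beta. Conventional T cells therefore spread over many variable segments, a clone keeps the segments of its founder, and invariant T cells share them by lineage. Invariant natural killer T cells pair Trav11 with the joining segment Traj18 and a few beta segments, among them Trbv13-2, Trbv1 and Trbv29, and mucosal-associated invariant T cells pair Trav1 with Traj33 and mostly Trbv19 or Trbv13 segments. Some Trav segments, named with dv, can also be joined to delta joining segments in gamma-delta T cells. The variable segment lies at the 5′ end of the mRNA, while these libraries were primed at its 3′ end.

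The segments on which the results turn are shown by the last 90 bases of their GENCODE M21 transcripts on GRCm38, 5′ to 3′, with the last in-frame cysteine codon, beside which the antigen-binding CDR3 begins, in capitals. Trbv3 lies on the plus strand at chr6:41048739-41048828, and the other 4 lie on the plus strand of chromosome 14.
Trbv3: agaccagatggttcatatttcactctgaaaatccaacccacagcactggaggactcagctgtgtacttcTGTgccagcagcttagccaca
Trav12-2 (chr14:53616825-53616914): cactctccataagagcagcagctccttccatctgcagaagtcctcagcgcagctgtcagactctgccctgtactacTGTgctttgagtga
Trav11 (chr14:53519770-53519859): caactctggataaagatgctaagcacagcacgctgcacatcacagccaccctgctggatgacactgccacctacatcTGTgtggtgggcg
Trav1 (chr14:52428787-52428876): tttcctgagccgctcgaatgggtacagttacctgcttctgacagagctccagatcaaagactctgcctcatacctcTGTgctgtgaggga
Trav14d-3-dv8 (chr14:53078956-53079045): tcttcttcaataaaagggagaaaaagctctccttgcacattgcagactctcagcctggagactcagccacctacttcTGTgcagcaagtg
Trbv3 led the beta chains of the tamoxifen library, Trav12-2 was its most frequent alpha partner there, Trav11 and Trav1 are the segments of invariant T cells, and Trav14d-3-dv8 led the alpha segments of Trdc cells in tamoxifen.

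Trav segments at 0 UMIs had fewer unique stretches of sequence than those with a UMI, and Trbv segments did not differ in this. Of 57 Trav symbols at 0 UMIs, 16 were annotated pseudogenes, and 38 had no window of 60 bases that was unique among the variable transcripts. Of the 71 Trav segments with a UMI, 2 had no such window, and the median share of unique windows was 64.0%, against 0% in those at 0, of which 11 had at least 50%. All windows of the Trbv symbols were unique, with or without a UMI. All 12 Trbv symbols at 0 were annotated pseudogenes, while 22 of the 23 with a UMI were annotated as functional. Trav11 is one of those without a unique window: its transcript had 0 differences from Trav11d over 342 bases and 8 from Trav11n over 343. In CD3 cells Trav11 had 126 UMIs in oil and 103 in tamoxifen, Trav11d had 0 in both, and Trav11n had 3 and 0. A value for Trav11 may therefore hold reads of Trav11d, and the sources used here do not say how reads of equal copies were assigned. In CD3 cells 85 segments had a UMI in oil and 84 in tamoxifen, 91 in either. All 60 joining segments listed on the alpha side, Traj18 and Traj33 included, had 0 UMIs in both libraries, which allows a share of up to 0.0994% of CD3 cells in oil and 0.0585% in tamoxifen to hold a UMI. The pairing of Trav11 or Trav1 with its joining segment was therefore not measured.

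CD3 cells numbered 3019 of 6794 kept cells in oil (20884604 UMIs, median 5977 per cell) and 5127 of 10138 in tamoxifen (35392604 UMIs, median 5607). Each group had 1 library, so nothing below was tested, and all intervals are 95% intervals that cover counting error only, exact except those of the Simpson index. Intervals of ratios of summed UMIs take every UMI as independent. UMIs of 1 cell are not, so all such intervals below are too narrow. The marker list of alveolar macrophages had a UMI in 25.5% of CD3 cells in oil and 41.6% in tamoxifen. For neutrophils the shares were 3.58% and 21.2%. An alternative left out cells with B cell or macrophage UMIs, but cells with neutrophil UMIs were never left out. In tamoxifen the neutrophil list had a UMI in 22 of 89 Trbv3 cells (24.7%) and in 19.1% of CD3 cells with a segment. The part of such cells in the results was not tested further. Among barcodes, 41 were found in both libraries, and 12 oil and 16 tamoxifen CD3 cells were among them. Cd3d, Cd3e and Cd3g set the class. Of the T cell markers outside that rule, Trac had a UMI in 57.5% of CD3 cells in oil and 57.2% in tamoxifen, and Trbc2 in 70.8% and 74.3%. In kept cells without a CD3 UMI Trac was found in 1.93% and 1.32%, and Trbc2 in 10.5% and 6.21%.

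A Trav segment was found in 382 oil CD3 cells (12.7%, 11.5 to 13.9) and in 583 tamoxifen CD3 cells (11.4%, 10.5 to 12.3). For Trbv the counts were 290 (9.61%, 8.58 to 10.7) and 482 (9.40%, 8.62 to 10.2). In kept cells without a CD3 UMI, whose median was 7190 UMIs in oil and 8541 in tamoxifen, Trav was found in 0.159% and 0.140%, and Trbv in 0.159% and 0.0998%. Segments were thus caught in few CD3 cells, and still far more often than in cells without CD3. After thinning each cell to 1500 UMIs, which left out 275 oil and 333 tamoxifen cells, Trav was found in 4.52% and 3.90%, and Trbv in 3.17% and 2.77%.

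Classes were set by a UMI of Cd4 or Cd8b1, the coreceptors of helper and cytotoxic T cells, or of Trdc, the delta constant region, and a cell with more than 1 of the 3 was kept apart. A Trav segment was found in 19.2% of 432 Cd4 cells in oil and 17.8% of 668 in tamoxifen, and in 19% of 221 and 18.0% of 406 Cd8b1 cells. In cells with none of the 3 it was found in 11.9% of 2072 and 9.45% of 3513. In Trdc cells it was found in 3.30% of 273 (1.52 to 6.17) in oil and 7.53% of 385 (5.10 to 10.6) in tamoxifen, while Trbv stood at 2.56% and 1.82%. In cells with at least 3 UMIs of Il17a, the main type 17 cytokine, here called Il17a high, Trav was found in 15.4% of 345 and 15.7% of 886 cells.

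**Figure D1:**
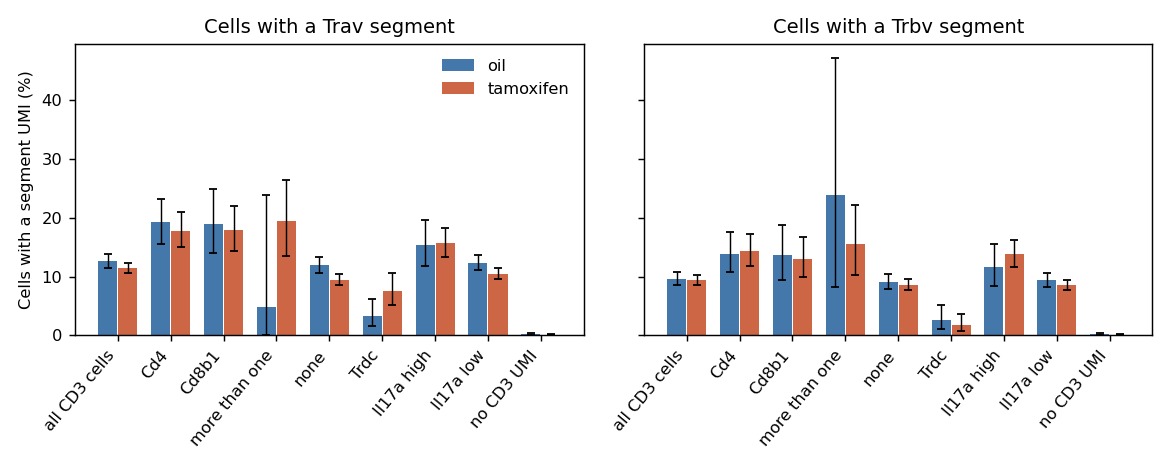
Share of cells with at least 1 UMI of any Trav (left) or Trbv (right) segment, in percent, by class, with exact 95% intervals for counting error. Both chains were found in 9.40% to 12.7% of CD3 cells, least in Trdc cells and in under 0.2% of cells without CD3.

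In summed level, Trav UMIs, scaled to counts per 1e6 UMIs of CD3 cells (CPM), were 29.4 in oil and 23.7 in tamoxifen, a log2 difference of -0.31 (-0.46 to -0.15). Trbv stood at 16.3 and 16.5 CPM, a log2 difference of 0.02 (-0.17 to 0.22). The Trav difference was -0.12 (-0.29 to 0.04) when cells with B cell or macrophage UMIs were left out. The receptor constant and CD3 genes lay within 2-fold: on the log2 scale Trac differed by -0.08 and Trbc2 by 0.18, and the list ran from -0.45 for Trbc1 to 0.40 for Tcrg-C4, a gamma constant gene. In the same cells Il17a stood at 307 CPM in oil and 696 in tamoxifen (1.18, 1.14 to 1.22), Cd200 at 12.4 and 58.3 (2.23) and Lag3 at 7.47 and 27.9 (1.90).

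Single segments differed more than the chains as a whole. Of 94 segments, 31 had at least 20 UMIs over both libraries, of which 2 were at least 2-fold higher in tamoxifen, where 4.21% of all 13874 genes with that many UMIs were, and 5 at least 2-fold lower, where 2.77% were. Their median log2 difference was -0.12, beside 0.05 over all genes. Those higher were Trbv3 (11 UMIs in oil, 107 in tamoxifen) and Trav12-2 (2 and 54). In CPM, Trbv3 stood at 0.527 in oil and 3.02 in tamoxifen, a log2 difference of 2.52 (1.62 to 3.57), and Trav12-2 differed by 3.99 (2.07 to 7.08). Those lower included Trav4-2 (33 and 2 UMIs, log2 difference -4.81), Trbv15 (15 and 8, -1.67) and Trav11 (126 and 103, -1.05).

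Usage, the share of the cells with a segment of a chain that hold a given segment, is not changed by the overall rate at which a chain is caught. Trbv3 was in 9 of 290 Trbv-positive cells in oil (3.10%, 1.43 to 5.81) and in 89 of 482 in tamoxifen (18.5%, 15.1 to 22.2). It was thus the leading beta segment of the tamoxifen library, ahead of Trbv13-2 at 57 cells (11.8%), and held a minor place in oil. Trav12-2 was in 2 of 382 Trav-positive cells in oil (0.524%, 0.0635 to 1.88) and in 49 of 583 in tamoxifen (8.40%, 6.28 to 11.0). The intervals of the libraries do not overlap for either segment. Of 31 segments with at least 10 positive cells in a library, these 2 were at least 2-fold higher in tamoxifen, 4 were at least 2-fold lower and 25 were within 2-fold. The limit could be met in either library. Trbv3 and Trav12-2 met it only in tamoxifen, and Trav4-2, Trav12-3 and Trbv15 only in oil, so these entered through the library where they were higher.

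The other frequent beta segments kept close shares. Trbv1 was the leading one in oil, at 39 cells (13.4%, 9.74 to 17.9) beside 51 (10.6%, 7.98 to 13.7) in tamoxifen. Trbv2 was in 11.0% and 10.8% of positive cells, Trbv19 in 10.7% and 11.6%, Trbv13-3 in 10.7% and 11.2%, and Trbv13-2 in 10.3% and 11.8%. Trbv13-1 stood at 7.59% (4.82 to 11.3) and 4.15% (2.55 to 6.34), with intervals that overlap. On the alpha side Trav3-3 was in 43 oil cells (11.3%) and 57 tamoxifen cells (9.78%), and Trav16n in 24 (6.28%) and 38 (6.52%). The inverse Simpson index, the number of equally used segments that would give the same evenness, was taken over cells with exactly 1 segment of the chain, with an interval from its large-sample variance. It was 16.1 (13.1 to 20.8) for Trav and 12.4 (11.2 to 14.0) for Trbv in oil. In tamoxifen it was 21.1 (18.6 to 24.3) and 10.4 (9.49 to 11.5).

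**Figure D2:**
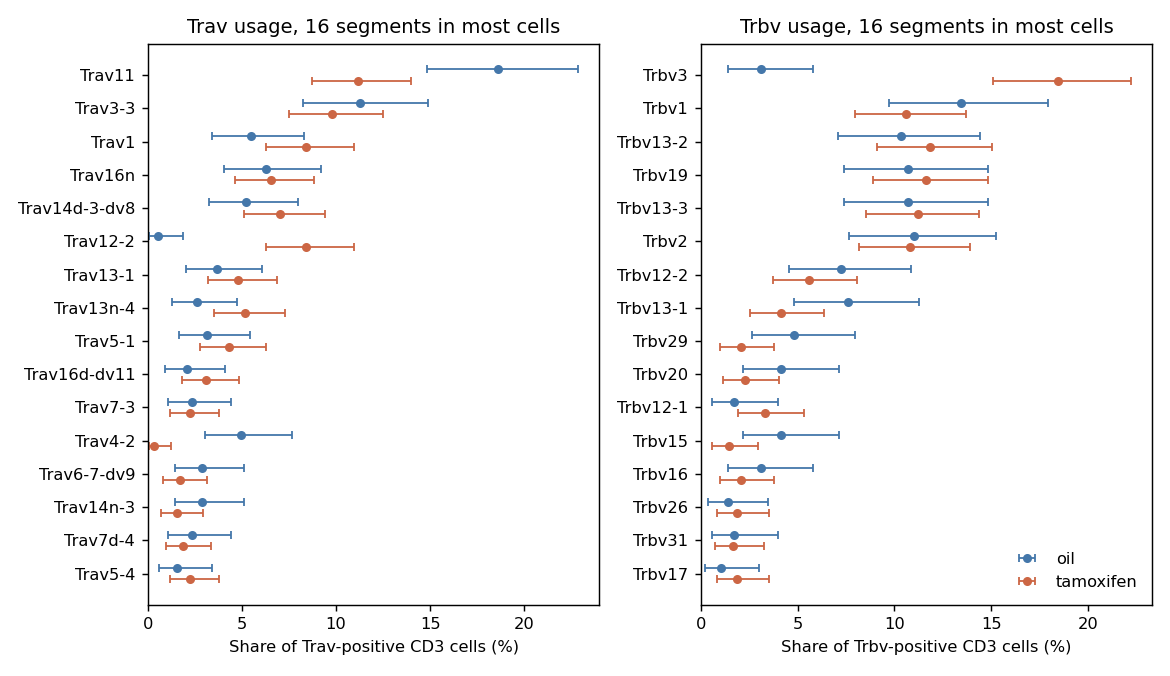
Share of Trav-positive (left) and Trbv-positive (right) CD3 cells that hold each of the 16 segments found in most cells, in percent, with exact 95% intervals. Trbv3 and Trav12-2 sit higher in tamoxifen, Trav4-2 and Trav11 higher in oil, and most other intervals overlap.

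Trbv3 was concentrated in the Il17a high cells of the tamoxifen library. There it was in 67 of 122 Trbv-positive cells (54.9%, 45.7 to 63.9), and its usage in the remaining cells was 22 of 360 (the leading segment of those was Trbv13-2, 52 cells, 14.4%). In oil it was in 1 of 40 Il17a high cells (2.50%, 0.0633 to 13.2) and the leading segment was Trbv13-3, with 7 (17.5%, 7.34 to 32.8). The inverse Simpson index of Trbv in Il17a high cells was 11.6 (8.47 to 18.3) in oil and 3.29 (2.56 to 4.60) in tamoxifen. Evenness of beta usage thus lay far lower in the Il17a high cells of tamoxifen, and in cells low in Il17a it was 12.6 and 11.4.

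Split by coreceptor, Trbv3 was in 33 of 44 Trbv-positive Il17a high Cd4 cells in tamoxifen (75%, 59.7 to 86.8), and in 7 of 9 Il17a high Cd8b1 cells. Cells with UMIs of both Cd4 and Cd8b1, 14 in oil and 135 in tamoxifen, gave 0 of 3 and 17 of 21 (81.0%, 58.1 to 94.6). Among Il17a high cells with neither coreceptor nor Trdc it was in 14 of 52 (26.9%, 15.6 to 41.0). In tamoxifen the segment thus led whether the cell had Cd4, Cd8b1 or both. Of the 89 Trbv3 cells, 35 had Cd4, 13 Cd8b1, 17 both and 23 none of the 3 genes. Cd8b1 had a UMI in 31 of them, and Cd8a, the other chain of the CD8 coreceptor, in 6 of those 31. Cd8b1 was in 0.419% of tamoxifen cells without CD3, and Cd8a in 0.519%.

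Alpha usage in the same Il17a high cells was led by Trav12-2, in 42 of 139 Trav-positive cells (30.2%, 22.7 to 38.6), then Trav13n-4 in 18 (12.9%, 7.86 to 19.7). In oil the same class had Trav12-2 in 0 of 53, and Trav11 led with 10. Few cells gave both chains: 60 in oil and 80 in tamoxifen, in 58 and 69 distinct pairs. Of 8 tamoxifen Trav12-2 cells with any Trbv, 6 had Trbv3, which makes it the most frequent pair of that library. Trbv3 was also found with Trav3-3 in 4 of 9 cells with a Trbv, and with Trav13n-4 in 3 of 5, and in 0 of 6 Trav11 cells and 0 of 5 Trav1 cells. More than 1 alpha partner was thus seen beside Trbv3, over the 17 Trbv3 cells of tamoxifen with any Trav. These partners need not lie in separate cells, since Trav12-2 and Trav13n-4 were found together in 2 tamoxifen cells.

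**Figure D3:**
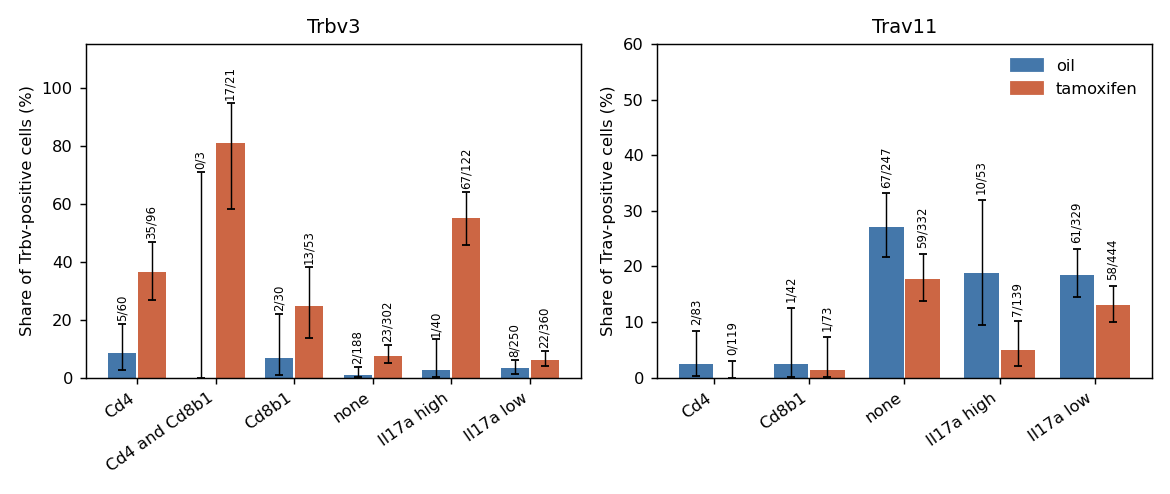
Share of Trbv-positive cells with Trbv3 (left) and of Trav-positive cells with Trav11 (right) by class, in percent, with exact 95% intervals and the cell counts above each bar. Trbv3 reaches 67 of 122 in Il17a high tamoxifen cells and 1 of 40 in oil, and Trav11 lies mostly in cells without Cd4, Cd8b1 or Trdc.

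The 89 Trbv3 cells of tamoxifen (median 5856 UMIs) were compared with the 393 other Trbv-positive cells of that library (median 5905). Il17a stood at 4886 CPM against 422, a log2 difference of 3.53 (3.43 to 3.63), with a UMI in 77 and 88 cells. Cd200, a ligand of an inhibitory receptor, stood at 435 against 22.9 CPM (4.25, 3.85 to 4.67; 53 and 24 cells), and Lag3, an inhibitory receptor that binds MHC class II, at 304 against 15.2 (4.32, 3.83 to 4.84; 47 and 15 cells). Trbv3 cells were thus richer in these genes, and thinning to 1500 UMIs left Cd200 in 43.0% against 2.08% of cells and Lag3 in 31.4% against 0.781%. Kept tamoxifen cells without CD3 had Il17a in 3.69%, Lag3 in 1.92% and Cd200 in 16.4%, at a median of 8541 UMIs. Class was not held equal: 23 of the 89 Trbv3 cells had none of Cd4, Cd8b1 and Trdc, beside 302 of all 482 Trbv-positive cells.

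Other genes that were higher in the Trbv3 cells were Il17f, a second type 17 cytokine (3.11, 2.80 to 3.42), Cd4 (2.08, 1.72 to 2.44), Cd247, the CD3 zeta chain (2.0, 1.68 to 2.32), the chemokine receptor Ccr6 (1.46), and the inhibitory receptor Pdcd1 (1.10). Ifng stood at 83.7 against 14.9 CPM, from 7 and 15 cells. Lower were Zbtb16, the transcription factor of innate-like T cells (-3.11, -5.00 to -1.72; 3 against 103 cells), Ramp3, a receptor activity-modifying protein (-2.94), Il7r, the interleukin 7 receptor (-1.54), and Pxdc1 (-1.25). Foxp3, which marks regulatory T cells, had 0 UMIs in Trbv3 cells and a UMI in 16 of the others. Of 32 genes in the list of innate-like and helper genes, 31 could be compared: 9 were at least 2-fold higher in Trbv3 cells, where 8.37% of 8606 genes were, and 9 at least 2-fold lower, where 7.89% were. The list's median was -0.19, beside 0.16 over all genes. The rearrangement genes Rag1, Rag2 and Dntt had 0 UMIs in the cells of either side.

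Part of this pattern remained when Il17a high cells alone were compared, 67 with Trbv3 and 55 with another Trbv. Cd200 stood at 505 against 54.0 CPM (3.23, 2.61 to 3.91), Lag3 at 351 against 49.3 (2.83, 2.17 to 3.56) and Cd4 at 244 against 82.1 (1.57, 1.01 to 2.16). Ramp3 was lower by a log2 difference of -3.09 (-3.79 to -2.46) and Zbtb16 by -3.22. Il17a itself, which set the class, stood at 6227 against 2632 CPM. Of the list, 24 genes could be compared, with 6 at least 2-fold higher (10.1% of all genes) and 5 lower (5.69%). The Trbv3 cells thus differed from other Il17a high cells in these genes, but the 2 sets also differed in class. Trbv3 was in 33 of 44 such Cd4 cells and in 14 of 52 with none of Cd4, Cd8b1 and Trdc. No comparison was made within a class, so whether the genes go with the segment or the class was not tested.

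UMIs of the constant regions were uneven in Trbv3 cells too, but do not show which constant region the Trbv3 chain used. Trbc1 was also found in 230 of 387 tamoxifen cells with Trdc and without Trav14d-3-dv8 (59.4%), while a Trbv was found in 1.82% of Trdc cells there. In tamoxifen, Trbv3 cells had 102 UMIs of Trbc1 and 1121 of Trbc2, so that Trbc1 made up 8.34% (6.85 to 10.0) of both, beside 28.6% in the other Trbv-positive cells. Among other tamoxifen segments with at least 9 cells, the share ran from 8.11% for Trbv17 (9 cells) to 55.1% for Trbv29 (10 cells). Trbv16 stood at 9.92% (10 cells) and Trbv12-2 at 12.5% (27 cells), so a low share was not particular to Trbv3. In the 9 Trbv3 cells of oil Trbc1 made up 38.3% (44 and 71 UMIs), and in other Trbv-positive cells of oil 34.7%. Trav12-2 cells of tamoxifen, most without a Trbv UMI, had 8 Trbc1 and 419 Trbc2 UMIs (1.87%), against 25.3% in other Trav-positive cells. Trbc1 was found in 3 of 49 Trav12-2 cells and 18 of 89 Trbv3 cells. In all 819 Il17a high tamoxifen cells without a Trbv3 UMI, Trdc cells included, the Trbc1 share was 17.4%, against 29.3% in 344 such cells of oil. In the 55 of the 819 with another Trbv it was 29.4%. UMIs of 1 cell are not independent, so these intervals are too narrow.

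The 49 Trav12-2 cells of tamoxifen were set against 534 other Trav-positive cells, and several genes differed in the same direction as in Trbv3 cells. Cd200 (353 against 48.3 CPM) differed by 2.87 (2.53 to 3.21), Lag3 by 2.86 (2.45 to 3.27), Il17a by 2.65 and Cd4 by 1.55, while Ramp3 differed by -2.19 and Il7r by -1.10. Most Trav12-2 cells were counted without a Trbv UMI, and 6 cells are shared by both sets. Class was not held equal here either: 10 of the 49 had none of Cd4, Cd8b1 and Trdc, beside 332 of all 583 Trav-positive cells. Of the list, 8 of 31 genes were at least 2-fold higher (8.4% of all genes) and 6 lower (9.59%), with a median of 0.28 beside 0.11 over all genes.

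**Figure D4:**
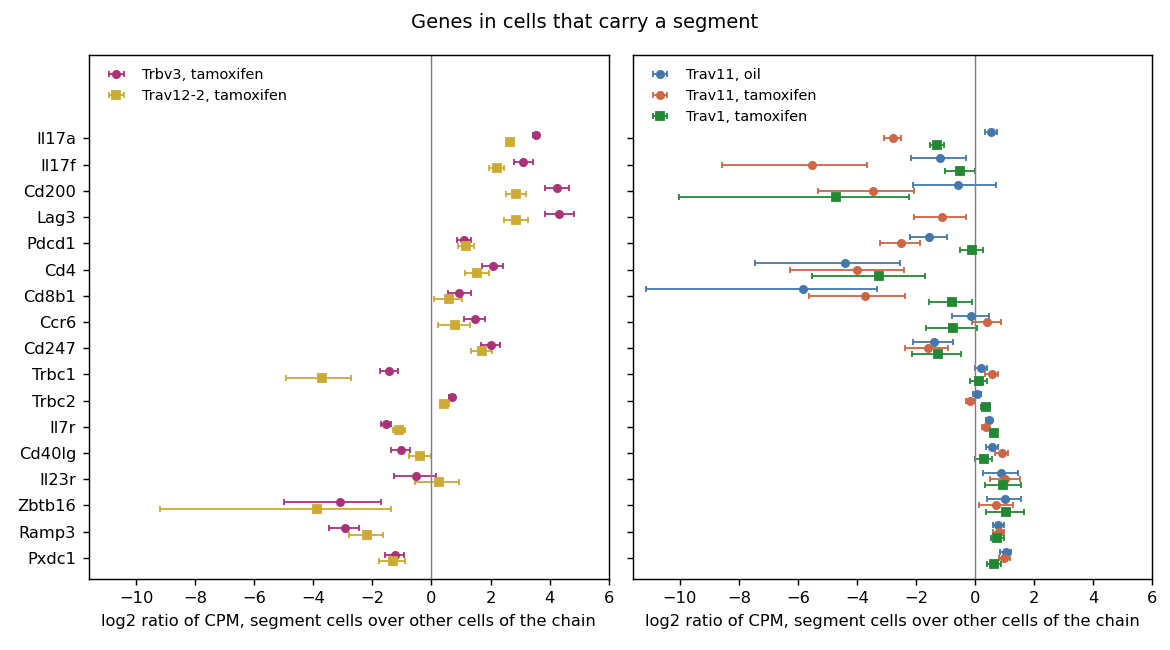
Log2 ratio of CPM between cells with a segment and the other cells of that chain in the same library, with exact 95% intervals, for Trbv3 and Trav12-2 in tamoxifen (left) and for Trav11 in both libraries and Trav1 in tamoxifen (right); a gene with 0 UMIs in the segment's cells has no point. Il17a, Cd200 and Lag3 lie to the right of 0 in Trbv3 and Trav12-2 cells, and Zbtb16, Ramp3 and Pxdc1 to the right of 0 in the Trav11 and Trav1 cells shown.

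The dominance of Trbv3 was seen in female cells. In tamoxifen, Trbv3 was in 78 of 302 Trbv-positive female cells (25.8%, 21 to 31.2) and 3 of 87 male cells (3.45%, 0.717 to 9.75). In oil it was in 9 of 211 female cells (4.27%, 1.97 to 7.94) and 0 of 48 male cells. Trav12-2 was in 45 of 359 female cells (12.5%, 9.29 to 16.4) and 1 of 109 male cells of tamoxifen, and in 1 of 260 and 1 of 72 in oil. Among Il17a high cells of tamoxifen, Trbv3 was in 60 of 85 female cells (70.6%, 59.7 to 80.0) and 1 of 12 male cells. Female cells were also richer in Il17a high cells there, 20.9% of 3229 against 11.1% of 853 male cells, while in oil the shares were 12.4% and 11.4%. Cells with both Cd4 and Cd8b1 made up 3.84% of female cells in tamoxifen and 0.234% of male cells. In male cells the intervals of Trbv3 in the libraries overlap, since 0 of 48 has an upper bound of 7.40%. Within cells of 1 sex, the individual animal and the library's treatment cannot be told apart. Within 1 library the same holds for sex and the individual animal, since the files hold no label of the animal behind a cell.

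**Figure D5:**
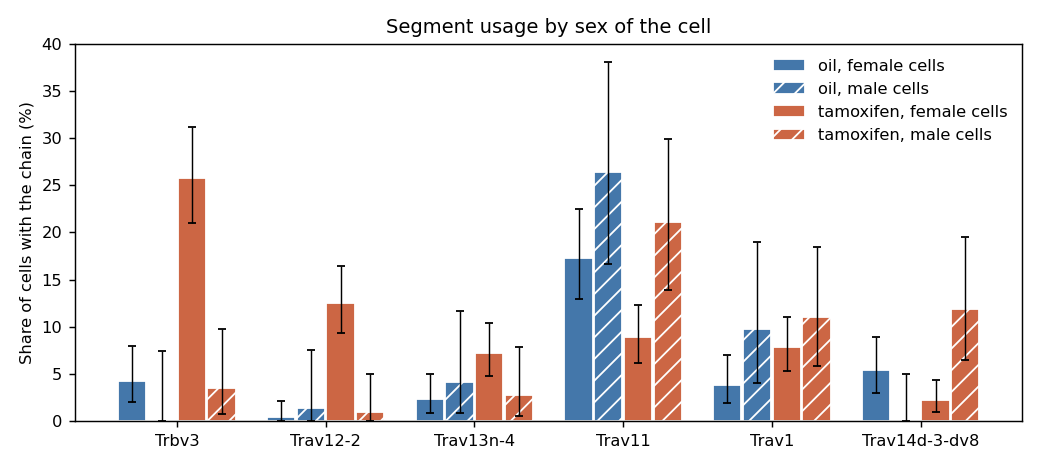
Share of Trbv-positive cells (for Trbv3) or Trav-positive cells (for the other segments) that hold each segment, in percent, in cells called female (plain) and male (hatched) of each library, with exact 95% intervals. Trbv3 and Trav12-2 stand highest in female tamoxifen cells, and Trav11 was higher in male than in female cells of tamoxifen.

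Trav11, the alpha segment of invariant natural killer T cells, was the most frequent alpha segment of both libraries: 71 of 382 Trav-positive cells in oil (18.6%, 14.8 to 22.9) and 65 of 583 in tamoxifen (11.1%, 8.71 to 14.0). The log2 difference in usage was -0.74 (-1.25 to -0.23). Within female cells it was in 17.3% (12.9 to 22.5) and 8.91% (6.18 to 12.4), and within male cells in 26.4% (16.7 to 38.1) and 21.1% (13.9 to 30.0), where the intervals overlap. By class it was concentrated in cells with no Cd4, Cd8b1 or Trdc UMI: 67 of 247 in oil (27.1%, 21.7 to 33.1) and 59 of 332 in tamoxifen (17.8%, 13.8 to 22.3). In Cd4 cells it was in 2 of 83 and 0 of 119, and in Cd8b1 cells in 1 of 42 and 1 of 73. Trav11 was found in 0 of 3775 oil cells and 1 of 5011 tamoxifen cells without CD3.

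Cells with Trav11 differed from other Trav-positive cells in a set of genes in both libraries. Of the Trav11 cells, 67 of 71 in oil and 59 of 65 in tamoxifen had none of Cd4, Cd8b1 and Trdc. The other cells include Cd4 and Cd8b1 cells, and no comparison was made within 1 class. Whether the genes go with the segment or the class was not tested. Zbtb16 stood at 71.7 CPM against 36 in other Trav-positive cells of oil (0.99, 0.41 to 1.56) and at 61.4 against 37.4 in tamoxifen (0.72, 0.12 to 1.27). Pxdc1 differed by 1.03 and 0.98, Ramp3 by 0.78 and 0.80, Il23r, the interleukin 23 receptor, by 0.88 and 1.01, and Cd40lg, the ligand of CD40, by 0.57 and 0.90. Their intervals lay above 0, but they leave out the spread between cells. Ramp3 had a UMI in 61 of 71 Trav11 cells in oil (85.9%) and 53 of 65 in tamoxifen (81.5%), against 51.1% and 50.2% of other Trav-positive cells and 14.7% and 10.2% of cells without CD3. Lower in both were Cd4 (-4.41 and -3.99), Cd8b1 (-5.83 and -3.74), Pdcd1 (-1.55 and -2.50) and Cd247 (-1.38 and -1.61), and Foxp3 had 0 UMIs in both. Klrb1c, which encodes the NK1.1 receptor, was found in 2 and 5 Trav11 cells. Il17a stood at 443 CPM in Trav11 cells of oil and 181 in those of tamoxifen, in 17 and 12 cells. Of the list of 32 genes, 30 could be compared in oil, with 4 at least 2-fold higher (3.31% of all genes) and 11 lower (9.44%), and 31 in tamoxifen, with 3 higher (3.94%) and 9 lower (9.24%).

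The beta partners of Trav11 were few and mixed. In oil, 9 Trav11 cells had a Trbv, of which 5 had Trbv1, 2 Trbv13-1, 1 Trbv13-3 and 1 Trbv31. In tamoxifen 6 did, with 2 Trbv13-3 and 1 each of Trbv1, Trbv12-1, Trbv12-2 and Trbv13-1. Trbv13-2 and Trbv29 were found beside Trav11 in no cell. In cells without Cd4, Cd8b1 or Trdc, Trbv1 led in oil (30 of 188, 16%, 11.0 to 22.0) and Trbv13-3 and Trbv19 led together in tamoxifen (48 of 302 each, 15.9%, 12 to 20.5).

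Trav1, the alpha segment of mucosal-associated invariant T cells, was in 21 Trav-positive cells in oil (5.50%, 3.43 to 8.28) and 49 in tamoxifen (8.40%, 6.28 to 11.0), a log2 difference of 0.61 (-0.15 to 1.42). In cells with no Cd4, Cd8b1 or Trdc UMI it was in 13 of 247 and 39 of 332 (11.7%), and in Cd8b1 cells in 6 of 42 and 6 of 73. The genes of Trav1 cells were compared over all classes together, not within 1 class. In tamoxifen its cells had more Zbtb16 (76.4 against 37.3 CPM; 1.03, 0.37 to 1.64), Ramp3 (0.75), Pxdc1 (0.65) and Il23r (0.95), and less Cd4 (-3.25) and Cd200 (-4.73, from 1 UMI). In the 21 oil cells Ramp3 was found in 57.1% against 57.6% of other Trav-positive cells, Pxdc1 in 57.1% against 53.2% and Il23r in 4 cells against 22.4%, so these genes were not more frequent there. In those cells Zbtb16 differed by 0.73 (-0.37 to 1.66), and Cd8b1 by 2.35 (1.87 to 2.81) from 6 cells, 5 of the 21 having Cd8a. Of the list, 2 of 31 genes were at least 2-fold higher in tamoxifen Trav1 cells (6.63% of all genes) and 10 lower (9.1%). In oil 5 of 30 were higher (10.9%) and 5 lower (15.3%). Each library had 5 Trav1 cells with a Trbv, in 2 of which it was Trbv13-3.

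In Trdc cells of tamoxifen the alpha segments were led by one that delta chains can use. Trav14d-3-dv8 was in 20 of 29 Trav-positive Trdc cells of tamoxifen (69.0%, 49.2 to 84.7) and in 0 of 9 of oil, where its interval reaches 33.6%. Trav15-2-dv6-2, another shared segment, was in 5 of the tamoxifen cells and 2 of the oil cells. Trav13-1, not named with dv, was also in 2 of the oil cells, and no segment was in more there. Of the 20 tamoxifen Trdc cells with Trav14d-3-dv8 (median 6035 UMIs), 13 (65%) had Tcrg-V1, a gamma variable segment, and 19 the gamma constant gene Tcrg-C2. Of the other 387 cells with Trdc (median 5021 UMIs), those with Cd4 or Cd8b1 included, 66 (17.1%) and 171 (44.2%) did. Tcrg-V4 was found in 5 and 15, Tcrg-C4 in 15 and 181, and Tcrg-C1 in 2 (10%) and 256 (66.1%). These shares were not taken at equal depth. Tcrg-V6, the segment of interleukin 17-producing fetal-derived gamma-delta cells, was found in 0 of the 20 and 105 of the 387. Il17a was found in 0 of the 20 and 143 of the 387, Pdcd1 in 16 (80%) and 212 (54.8%), and Ifng in 6 (30%) and 26 (6.72%). The constant genes of the alpha-beta receptor were also frequent in these 20 cells. Trac was found in 13 (65%, 40.8 to 84.6) against 117 of the 387 (30.2%, 25.7 to 35.1). Trbc1 was found in 18 (90%) against 230 (59.4%), and Trbc2 in 18 (90%) against 317 (81.9%). The Trdc cells with this segment thus differed from the other Trdc cells in gamma segment and cytokine genes, and in Trac and Trbc1. Whether the segment lay on an alpha or a delta chain was not measured. Outside Trdc cells the same segment was in 9 Cd4 cells of oil and 10 of tamoxifen. It was in 11 cells of each library with none of Cd4, Cd8b1 and Trdc, and in no Cd8b1 cell of either. Among all cells with this segment, Trdc cells included, those with a Trbv mostly had Trbv2, 4 of 4 in oil and 5 of 7 in tamoxifen. By sex, again over all its cells, it was in 14 female and 0 male cells of oil, and in 8 female and 13 male cells of tamoxifen. Within the Trdc cells of tamoxifen, 214 female and 80 male, it was in 3 female and 8 male cells. Those with any Trav numbered 7 and 12. Its other Trdc cells had no sex call.

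Segments lower in usage in tamoxifen were few-celled. Trav4-2 was in 19 oil cells (4.97%, 3.02 to 7.66) and 2 tamoxifen cells (0.343%), a log2 difference of -3.86 (-7.00 to -1.81). Foxp3 was found in 10 of the 19 oil cells (52.6%, 28.9 to 75.6) and 21 of 363 other Trav-positive cells (5.79%), and in 0.397% of oil cells without CD3. Ctla4, an inhibitory receptor of regulatory and activated T cells, was found in 16 of the 19 and Ramp3 in 3, against 178 and 217 of the 363. Other genes of regulatory T cells did not follow: Ikzf2 was found in 5 of the 19 (26.3%) against 45.7% of the others, and Il2ra in 68.4% against 60.1%, with intervals that overlap. All 19 cells were called female. Trav12-3 was in 11 oil cells and 5 in tamoxifen (-1.75, -3.62 to -0.10), Trbv15 in 12 and 7 (-1.51, -3.09 to -0.05), and Trbv29 in 14 and 10 (-1.22, -2.55 to 0.06). None of the 11 Trav12-3 cells of oil had Cd4, Cd8b1 or Trdc.

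Cells with more than 1 segment of a chain were mostly on the alpha side, 49 in oil and 51 in tamoxifen, against 3 and 18 for Trbv. The most frequent pairs were near copies of one another, Trav16d-dv11 with Trav16n in 5 and 13 cells, and Trav14d-3-dv8 with Trav14n-3 in 5 and 3. In tamoxifen Trav14d-3-dv8 with Trav15-2-dv6-2 and Trav13-1 with Trav13n-4 were also found in 3 cells each. Trbv3 was found with Trbv12-1 in 3 tamoxifen cells.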

How the data were processed

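Single-cell RNA was measured in 2 libraries (oil and tamoxifen, 1 each) with 10x 3' v3 chemistry, per the labels' protocols. The deposited matrices hold raw UMI counts; Cell Ranger 5.0.1 and GRCm38 (mm10) are named in the submitters' processing notes, and no annotation is named. Cells, classes and the Il17a limit of 3 UMIs follow the rule in the report. No doublet caller was run; cells with a UMI of Cd79a, Ms4a1 or C1qa, or with 2 or more of Chil3, were left out in an alternative. Sex was called per cell: female where Xist was found and 4 Y-linked genes (Uty, Kdm5d, Eif2s3y, Ddx3y) were not, male where any of the 4 was found without Xist. CPM values are sums over a set of cells relative to all UMIs of that set. Shares carry exact Clopper-Pearson intervals and ratios exact intervals for 2 Poisson counts, at 95%. The ratio intervals were tested on simulated Poisson counts, which hold no spread between cells. The inverse Simpson index has an approximate interval. Genes with at least 20 UMIs were compared; for calls and medians 0.5 UMI was added.

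The members, lists and classes were chosen with earlier results of these data known. The rule for named segments took the 5 of each chain in most cells, the leading segment of each class with 20 or more positive cells, any at 10% or more there, a fixed list (Trav1, Trav11, Trav11d, Traj18, Traj33, Trbv1, Trbv13-1, Trbv13-2, Trbv13-3, Trbv19 and Trbv29), and up to 5 each way with 10 or more positive cells and a 2-fold difference in usage. Lists named were constant and CD3 genes, innate-like and helper genes, and rearrangement genes. Ctla4, Ikzf2, Il2ra, the gamma segments, near copies and partner segments were named after their values were seen. Segments were matched by gene identifier to GENCODE M21 (GRCm38). Python 3.11.15, numpy 2.4.6, scipy 1.17.1 and pandas 2.3.3 were used.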

Additional observations from a re-analysis of the deposited data

Results flagged for a closer look

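Variable segments were also found in CD3-positive barcodes that the limits on genes and mitochondrial UMIs leave out, and which enter no comparison above. A Trav segment was in 76 of 1038 such barcodes in oil (7.32%, 5.81 to 9.08) and 53 of 914 in tamoxifen (5.80%, 4.37 to 7.52). A Trbv segment was in 33 (3.18%, 2.2 to 4.44) and 41 (4.49%, 3.24 to 6.04). A count of 0 would have allowed up to 0.289% and 0.328%. The median depth of these barcodes was 1259.5 and 1106.5 UMIs. Trav11 led their alpha segments in both libraries, with 18 of 76 barcodes in oil (23.7%, 14.7 to 34.8) and 7 of 53 in tamoxifen (13.2%, 5.48 to 25.3). Among beta segments Trbv1 led in oil, with 8 of 33, and Trbv3 in tamoxifen, with 8 of 41 (19.5%, 8.82 to 34.9).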

How the results depend on the processing

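Of 167 alternative values, 136 stayed within the 95% interval of the value reported and 31 moved out of it. A change of sign could be counted only for level differences whose interval excluded 0, and 0 of those changed sign. Shares and Simpson indices have no sign. Counting Trav11d with Trav11 could not move a value, since Trav11d had 0 UMIs in CD3 cells. Detection moved most often, and a minimum of 500 genes moved none of its values. With at least 2 CD3 UMIs, Trav was in 15.0% of oil and 13.4% of tamoxifen cells and Trbv in 11.4% and 11.1%. Without cells that had B cell or macrophage UMIs, Trav was in 14.0% and 13.0%, Trbv in 10.8% and 11.0%, and the log2 difference of any Trav was -0.12. Thinned to 1500 UMIs the values were 4.52%, 3.90%, 3.17% and 2.77%. A mitochondrial limit of 25% gave 8.38% for Trbv in oil. Restricting cells by sex moved the usage of Trbv3 in tamoxifen to 25.8% (female) and 3.45% (male), with 0% in male cells of oil, and that of Trav12-2 in tamoxifen to 12.5% and 0.917%. The leading Trbv share in Il17a high tamoxifen cells was 70.6% in female and 16.7% in male cells, with inverse Simpson indices of 2.0 and 18.3, and 21 in male cells of oil. Male cells, a split added after the data were seen, had Trav11 at 26.4% in oil and 21.1% in tamoxifen, and Trav1 at 9.72% and 11.0%. Pooling segments by family gave a leading share of 37.5% and an index of 5.57 in Il17a high cells of oil, and requiring 2 UMIs of the segment gave 40% there, of few cells. Leaving out barcodes found in both libraries, and counting Trav11n with Trav11 and Trav11d, both also chosen after the data were seen, moved no value out of its interval. Leaving out a replicate was not run, since each group has 1 library. No paired analysis was possible because each group has 1 library. Precision is limited by catching a segment in few T cells, so classes with few positive cells have wide intervals, and a pair of chains is seen in few cells.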
